A study of Homo sapiens with 12 samples.

Results

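Cells copy their DNA from deoxynucleotides, and 9 genes of their supply are described here: TYMS, DUT and DTYMK of thymidylate synthesis, TK1 and DCK of nucleoside salvage, RRM1 and RRM2 of ribonucleotide reduction, and SHMT1 and MTHFD1 of folate supply. They were taken as a named set of 9 among the 15587 genes tested, through the probe sets that the platform annotation assigns to them. A probe set is a group of probes for a transcript. Of 24 assigned probe sets, 21 passed the filter on low values, 19 of these with a single gene name, and all 9 genes kept at least 1 such probe set. Expression was measured in the human myeloma cell line H929 on Affymetrix U133 Plus 2.0 arrays, with 12 arrays in 4 groups of 3. The groups were cells given 250 nM CHR-3996 and 1 µM tosedostat together for 24 hours (the combination), cells given CHR-3996 alone at that dose and time, cells given tosedostat alone at that dose and time, and untreated cells. CHR-3996 inhibits histone deacetylases, and tosedostat (CHR-2797) inhibits aminopeptidases. All groups come from a single cell line, and no vehicle is named for the untreated cells. The labels call the arrays of a group biological replicates without saying whether separate cultures were used. A p-value here reflects the spread between such samples within groups, pooled over all 4 groups in the main fit.

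Thymidylate, the DNA-specific nucleotide, is made de novo when thymidylate synthase methylates deoxyuridylate with a folate cofactor, or is recovered when thymidine kinase phosphorylates thymidine. Ribonucleotide reductase turns ribonucleotides into deoxyribonucleotides and supplies all DNA precursors. Most of these genes are known in human cells as genes of the G1/S transition that E2F transcription factors regulate, and the enzymes are targets of antimetabolite drugs.

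The promoters of 4 members are shown so that genes with and without a called change can be read side by side: TYMS and RRM2 were called lower under CHR-3996, while TK1 and SHMT1 were not called. Each sequence is the 250 bases before an annotated start, 5′ to 3′ on the gene's strand, from RefSeq on GRCh38.p14. TYMS is at chr18:657403-657652 on the + strand, RRM2 (the first of its annotated windows) at chr2:10122489-10122738 on the + strand, TK1 (the second of its windows) at chr17:78187053-78187302 on the - strand and SHMT1 at chr17:18363551-18363800 on the - strand. Capitals mark E2F-type matches and CCAAT boxes on either strand, and these windows were chosen after the matches had been seen.
TYMS: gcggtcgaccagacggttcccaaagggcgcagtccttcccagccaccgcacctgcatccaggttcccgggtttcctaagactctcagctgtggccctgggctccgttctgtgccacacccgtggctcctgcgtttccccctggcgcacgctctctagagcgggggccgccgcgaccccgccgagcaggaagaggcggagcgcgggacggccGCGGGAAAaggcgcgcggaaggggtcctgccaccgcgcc
RRM2: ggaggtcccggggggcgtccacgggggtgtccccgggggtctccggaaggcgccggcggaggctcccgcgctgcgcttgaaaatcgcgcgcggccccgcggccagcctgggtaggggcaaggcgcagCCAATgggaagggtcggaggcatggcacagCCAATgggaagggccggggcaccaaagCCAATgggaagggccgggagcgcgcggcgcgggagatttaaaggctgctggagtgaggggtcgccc
TK1: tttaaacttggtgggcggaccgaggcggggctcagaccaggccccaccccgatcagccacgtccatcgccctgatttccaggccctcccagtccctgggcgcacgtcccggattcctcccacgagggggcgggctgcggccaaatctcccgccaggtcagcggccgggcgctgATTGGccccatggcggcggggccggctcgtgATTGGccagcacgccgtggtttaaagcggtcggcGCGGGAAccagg
SHMT1: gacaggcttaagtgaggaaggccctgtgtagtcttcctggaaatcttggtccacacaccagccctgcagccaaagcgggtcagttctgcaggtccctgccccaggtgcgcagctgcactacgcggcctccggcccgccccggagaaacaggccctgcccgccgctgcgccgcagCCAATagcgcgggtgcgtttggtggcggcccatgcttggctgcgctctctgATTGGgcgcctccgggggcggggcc
In TYMS an E2F-type match lay at -39 to -32 from the start. The RRM2 window held 3 CCAAT boxes, beginning at -123, -93 and -66. TK1 held CCAAT boxes on the opposite strand beginning at -77 and -46 and an E2F-type match at -12 to -6. SHMT1 held CCAAT boxes beginning at -76 and -25 and no E2F-type match.

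RefSeq gave 14 windows of 300 bases (250 before a start and 50 from it) for the 9 members, all of which matched by symbol. An E2F-type match was defined as TTCCCGC on either strand, or likewise as TTCGCGC, also as TTGCCGC, and also as TTGGCGC. It was present in 6 of the 14 member windows, belonging to TYMS, DUT, TK1, DCK, RRM1 and RRM2, and in 13% of all 35116 windows of that length. A longer form with a further T in front was present in 3 member windows, of TYMS, DUT and DCK, and in 3.31% of all windows. Every longer match also counts as a short one. The CCAAT box, searched as CCAAT on either strand, was present in 7 member windows, of DTYMK, TK1, RRM1, RRM2, SHMT1 and MTHFD1, and in 34.6% of all windows. The GC box, GGGCGG on either strand, was present in 10 member windows and in 45% of all windows. The cell cycle genes homology region, searched as TTTGAA or TTCGAA on either strand, was present in 3 member windows, of DUT, DTYMK and RRM1, and in 16.4% of all windows. Windows of a gene overlap in part, a match is a description of letters, and the groups of genes that were and were not called lower both held E2F-type and CCAAT matches.

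**Figure D1:**
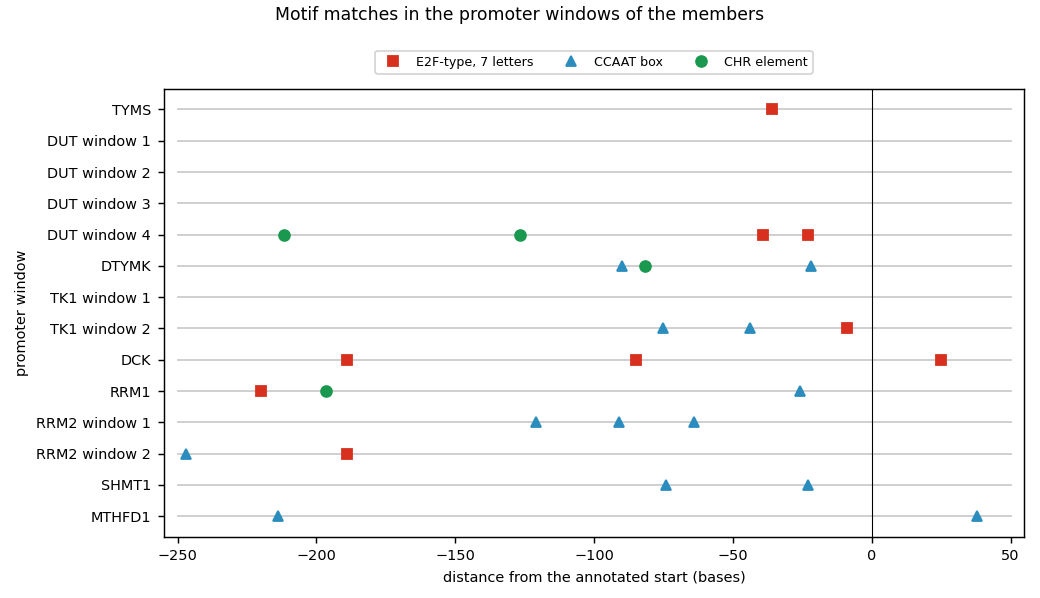
Positions of E2F-type matches, CCAAT boxes and cell cycle genes homology region (CHR) elements in the 14 RefSeq promoter windows of the 9 members, with distance from the annotated start in bases on the horizontal axis and 1 line per window. E2F-type matches are present in 6 windows, among them those of TYMS, which was called lower under CHR-3996, and of TK1, which was not.

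Within a group, the correlation of arrays over the 36395 tested probe sets was 0.978 to 0.983, and precision is limited by their number. All 11 plasma cell markers measured lay above the 40th percentile of every array, and of the markers of other cell types measured, 1 of 3 for B cells, 2 of 4 for T cells, 1 of 3 for monocytes, 2 of 4 for stroma and 1 of 2 for erythroid cells did so. Those on all 12 arrays were PAX5, CD3E, CD2, CSF1R, COL1A1, DCN and HBB, those on 0 arrays were CD22, CD3D, CD8A, CD14, COL1A2, COL3A1 and ALAS2, and MS4A1 lay above it on 11 and LYZ on 4. Their part in the results was not tested. The array median was 5.29 ± 0.02 under the combination, 5.26 ± 0.03 under CHR-3996, 5.05 ± 0.01 under tosedostat and 5.04 ± 0.03 in untreated cells (log2, SD, n = 3 each). The scaling of the arrays therefore moves the balance of calls. The share of higher calls among called probe sets was 65.1% for CHR-3996 against untreated cells as deposited, 47.6% after quantile normalization and 47.2% with equal array medians. For the combination against untreated cells it was 69.3%, 46.6% and 48.8% in the same order, for the combination against tosedostat 67.5%, 47.7% and 45.8%, and for tosedostat against untreated cells 87.7%, 75.9% and 87.1%. The median log2 difference of all probe sets under CHR-3996 was 0.11 as deposited and -0.11 with equal medians, so values of members near 0 can change sign with the scaling.

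Each member is read here by its representative probe set, the brightest kept one with a single gene name. By these, CHR-3996 lowered transcripts of 7 of the 9 members, TYMS, DTYMK, RRM2, RRM1, DCK, MTHFD1 and DUT. They fell to between 7.48% and 48.2% of the untreated level, and none of the 9 was raised. The same 7 were lower under the combination, at 11.6% to 53.8% of the untreated level, and again none was higher. TK1 and SHMT1 were not called in either comparison. Among the other probe sets, the dim 239846_at of MTHFD1 was called higher in both comparisons. Under the combination 224954_at, annotated to SHMT1 and MIR6778, was called higher as well. Over all genes tested, 18.0% were called lower and 31.7% higher for CHR-3996 against untreated cells, and 15.9% lower and 34.6% higher for the combination against untreated cells. The median log2 difference of the 9 members was -1.14 under CHR-3996 and -1.0 under the combination, beside 0.11 and 0.15 for all genes. A call is a Benjamini-Hochberg adjusted p under 0.05 in limma, fitted to the deposited log2 values of all 12 arrays. The comparisons with untreated cells share the same 3 untreated arrays. In bulk samples, fewer cells in S phase and less RNA per cell cannot be told apart.

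**Figure D2:**
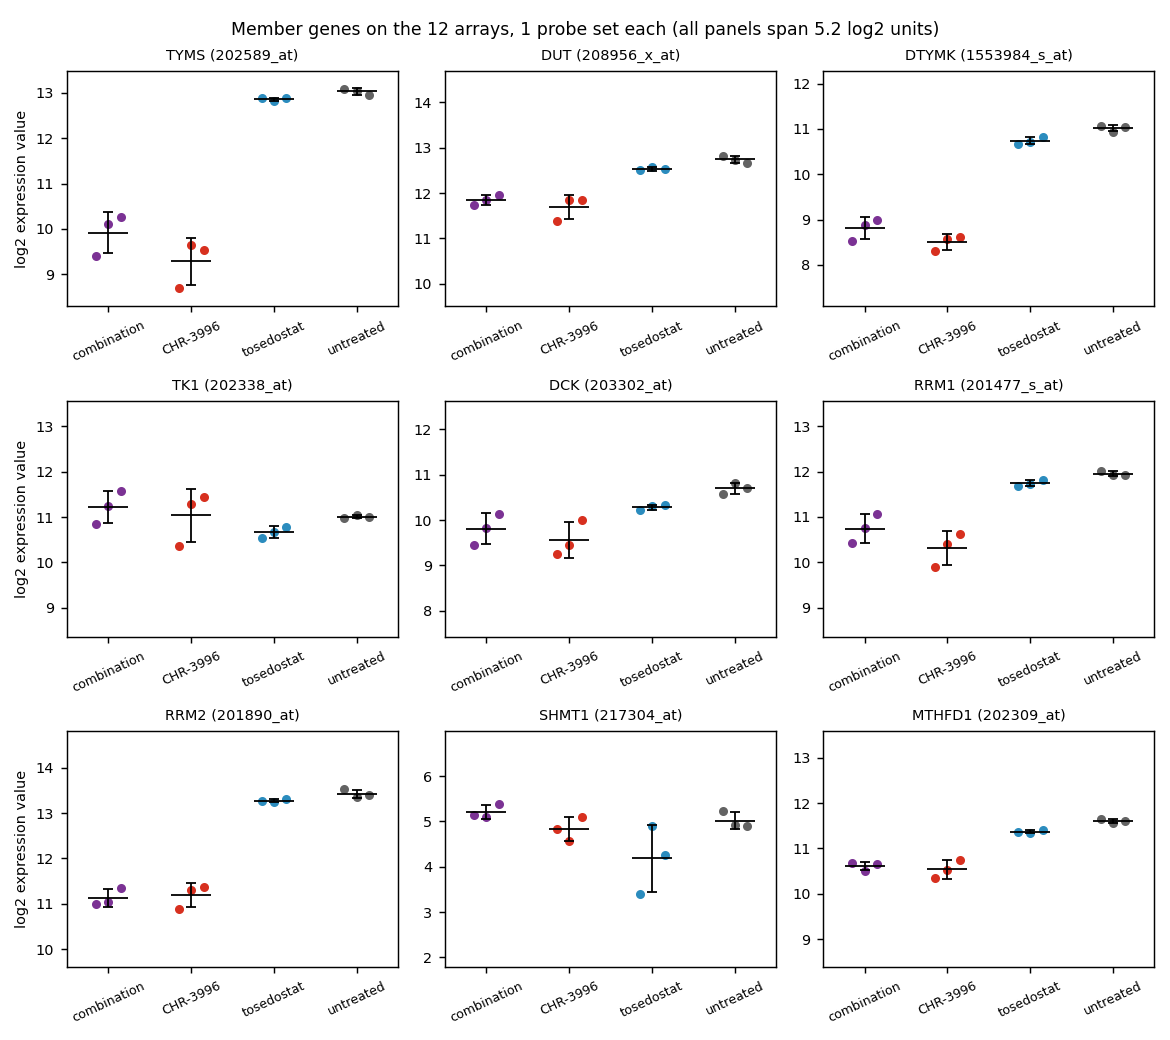
Log2 expression value on each of the 12 arrays for the 9 members, 1 representative probe set each, with groups on the horizontal axis, points for arrays, a line for the group mean and bars for 1 SD (n = 3). For TYMS the combination and CHR-3996 arrays sit between 8.69 and 10.25 and the tosedostat and untreated arrays between 12.81 and 13.09, while for TK1 the CHR-3996 arrays span 10.36 to 11.45 around the untreated arrays at 10.99 to 11.04.

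TYMS encodes thymidylate synthase and lies at chr18:657653-673578. Its brightest probe set, 202589_at, read 9.40, 10.10 and 10.25 under the combination, 8.69, 9.64 and 9.53 under CHR-3996, 12.88, 12.81 and 12.88 under tosedostat, and 13.09, 13.05 and 12.95 in untreated cells (log2, replicates 1 to 3). The combination and CHR-3996 arrays were all far below the others and overlapped each other, and replicate 1 was the lowest array in both groups. Against untreated cells TYMS changed by -3.74 under CHR-3996 (SE 0.26, adjusted p = 1.1e-06), to 7.48% of the untreated level, and by -3.11 under the combination (SE 0.26, adjusted p = 3.3e-06), to 11.6%. The other tested TYMS probe set, 1554696_s_at, moved further, by -4.80 and -3.93. A remaining probe set, 217684_at, lay at or below the 40th percentile on all 12 arrays and was not tested.

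DUT encodes the dUTPase, which hydrolyses deoxyuridine triphosphate to the precursor of thymidylate and keeps uracil out of DNA, and lies at chr15:48331095-48343373. Probe set 208956_x_at read 11.74, 11.84 and 11.95 under the combination, 11.38, 11.84 and 11.85 under CHR-3996, 12.50, 12.58 and 12.52 under tosedostat and 12.82, 12.73 and 12.67 in untreated cells. No array with CHR-3996, alone or in the combination, reached the lowest tosedostat or untreated array. DUT changed by -1.05 under CHR-3996 (SE 0.14, adjusted p = 7.5e-05), to 48.2% of the untreated level, and by -0.90 under the combination (adjusted p = 0.00023), to 53.5%. Its probe sets 209932_s_at and 208955_at were also called lower in both comparisons, at -1.21 and -1.65 under CHR-3996.

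DTYMK, thymidylate kinase, carries out the next phosphorylation of thymidylate and is needed by both the de novo and the salvage route, and lies at chr2:241675747-241686815. Probe set 1553984_s_at read 8.53, 8.89 and 9.0 under the combination, 8.30, 8.58 and 8.62 under CHR-3996, 10.67, 10.71 and 10.82 under tosedostat and 11.07, 10.94 and 11.05 in untreated cells. As for TYMS, the arrays with CHR-3996 stood well apart from those without it. The change was -2.52 under CHR-3996 (SE 0.14, adjusted p = 3e-07), to 17.4% of the untreated level, and -2.22 under the combination (adjusted p = 5.5e-07), to 21.5%. Probe sets 1553983_at and 203270_at gave -2.44 and -2.62 under CHR-3996. The dim 1565694_at, above the 40th percentile on 9 of 12 arrays, gave -0.91 (adjusted p = 0.18), and 1565693_at, above it on 0 arrays, was not tested.

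TK1 encodes the cytosolic thymidine kinase, the S phase enzyme of thymidine salvage, and lies at chr17:78174079-78187204. Probe set 202338_at read 10.85, 11.25 and 11.57 under the combination, 10.36, 11.30 and 11.45 under CHR-3996, 10.53, 10.68 and 10.79 under tosedostat and 10.99, 11.04 and 11.00 in untreated cells. The untreated arrays lay close together, inside the ranges of the combination and of CHR-3996. In both treated groups replicate 1 was below the untreated arrays and replicates 2 and 3 were above them. The difference from untreated cells was 0.02 under CHR-3996 (95% interval -0.56 to 0.60, adjusted p = 0.96) and 0.21 under the combination (-0.37 to 0.79, adjusted p = 0.55). With equal array medians these values were -0.20 and -0.04. Without CHR-3996 replicate 1 the CHR-3996 value was 0.36, and without replicate 3 it was -0.19. The second probe set, 1554408_a_at, gave 0.01 and 0.23. Under CHR-3996 the interval of TK1 did not overlap that of any of the 7 members called lower, of which the nearest was DCK at -1.60 to -0.69. These 7 are the members called in this same comparison, so their intervals lie below 0 by selection. The difference between the genes was not tested.

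DCK, deoxycytidine kinase, starts salvage of deoxycytidine and activates nucleoside drugs such as cytarabine and gemcitabine, and lies at chr4:70993649-71030914. Its probe set 203302_at read 9.46, 9.82 and 10.14 under the combination, 9.24, 9.44 and 10.00 under CHR-3996, 10.22, 10.30 and 10.33 under tosedostat and 10.58, 10.82 and 10.70 in untreated cells. Every array with CHR-3996 was below every array without it, by the least at replicate 3 of the combination. DCK changed by -1.14 under CHR-3996 (SE 0.21, adjusted p = 0.00086), to 45.3% of the untreated level, and by -0.90 under the combination (SE 0.21, adjusted p = 0.0041), to 53.8%.

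RRM1 encodes the large, catalytic subunit of ribonucleotide reductase and lies at chr11:4094685-4138932. Probe set 201477_s_at read 10.42, 10.75 and 11.06 under the combination, 9.90, 10.40 and 10.63 under CHR-3996, 11.69, 11.72 and 11.81 under tosedostat and 12.02, 11.92 and 11.93 in untreated cells. The combination and CHR-3996 arrays overlapped each other and no array of the other groups. The change was -1.65 under CHR-3996 (SE 0.19, adjusted p = 4e-05), to 31.9% of the untreated level, and -1.21 under the combination (adjusted p = 0.00036), to 43.1%. Probe set 201476_s_at was called lower as well, at -1.75 and -1.01.

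RRM2 encodes the small subunit, which carries the tyrosyl radical and whose supply limits the reductase outside S phase, and its annotation spans chr2:10122568-10211010. Probe set 201890_at read 10.99, 11.04 and 11.35 under the combination, 10.89, 11.31 and 11.38 under CHR-3996, 13.27, 13.24 and 13.30 under tosedostat and 13.53, 13.35 and 13.40 in untreated cells. By this probe set RRM2 was the one called member whose mean under the combination was not above that under CHR-3996. It changed by -2.23 under CHR-3996 (SE 0.15, adjusted p = 8.2e-07), to 21.3% of the untreated level, and by -2.29 under the combination (adjusted p = 6e-07), to 20.4%. Probe set 209773_s_at gave -2.60 and -2.29, and its mean was 10.74 under the combination, above 10.43 under CHR-3996.

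SHMT1, the cytosolic serine hydroxymethyltransferase, loads folate with the carbon that thymidylate synthase transfers, and lies at chr17:18327873-18363550. Its single-gene probe set, 217304_at, was dim, with 9 of 12 arrays above the 40th percentile, and read 5.14, 5.10 and 5.38 under the combination, 4.84, 4.57 and 5.09 under CHR-3996, 3.41, 4.89 and 4.26 under tosedostat and 5.23, 4.92 and 4.91 in untreated cells. The tosedostat group had the lowest mean and the widest spread, with replicate 2 at 4.89 inside the range of the CHR-3996 arrays. The difference from untreated cells was -0.19 under CHR-3996 (95% interval -0.85 to 0.48, adjusted p = 0.66) and 0.19 under the combination (-0.48 to 0.85, adjusted p = 0.65). A brighter probe set, 224954_at, is annotated to both SHMT1 and the microRNA gene MIR6778. It read 10.17, 10.22 and 10.05 under the combination, 9.80, 10.19 and 10.04 under CHR-3996, 9.76, 9.88 and 9.80 under tosedostat and 9.87, 9.66 and 9.67 in untreated cells. By it the combination was higher than untreated cells, by 0.41 (adjusted p = 0.018), and CHR-3996 differed by 0.28 (adjusted p = 0.093). Another tested probe set, 209980_s_at, has the same double annotation, lay above the 40th percentile on all 12 arrays and ranged from 6.22 to 7.23. It gave -0.25 under CHR-3996 (adjusted p = 0.31) and 0.14 under the combination (adjusted p = 0.59). Under CHR-3996 none of the tested probe sets of SHMT1 was called, with 217304_at and 209980_s_at reading lower and 224954_at higher. A further one, 231701_s_at, was above the 40th percentile on 2 arrays and was not tested.

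MTHFD1, the cytosolic enzyme with 3 activities that interconvert folate cofactors for thymidylate and purine synthesis, lies at chr14:64388353-64460025. Probe set 202309_at read 10.67, 10.50 and 10.66 under the combination, 10.34, 10.53 and 10.74 under CHR-3996, 11.36, 11.35 and 11.41 under tosedostat and 11.64, 11.57 and 11.60 in untreated cells. The arrays with CHR-3996 were all below those without it. MTHFD1 changed by -1.07 under CHR-3996 (SE 0.12, adjusted p = 2.2e-05), to 47.7% of the untreated level, and by -1.0 under the combination (adjusted p = 3.7e-05), to 50.1%. A dim probe set annotated to the same gene, 239846_at, went the other way. It read 5.52, 5.63 and 5.17 under the combination, 5.14, 4.51 and 4.72 under CHR-3996, 3.26, 3.79 and 4.24 under tosedostat and 2.91, 3.49 and 3.02 in untreated cells, and was called higher at 1.65 under CHR-3996 (adjusted p = 0.00034) and 2.30 under the combination (adjusted p = 3.1e-05). It was above the 40th percentile on 5 of 12 arrays, all of them with CHR-3996, so it passed the filter through the groups in which it was higher, and what transcript it reads was not tested. With the mean of both probe sets in place of the brighter one, MTHFD1 read 0.29 under CHR-3996 (adjusted p = 0.10) and was called higher under the combination at 0.65 (adjusted p = 0.0021).

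**Figure D3:**
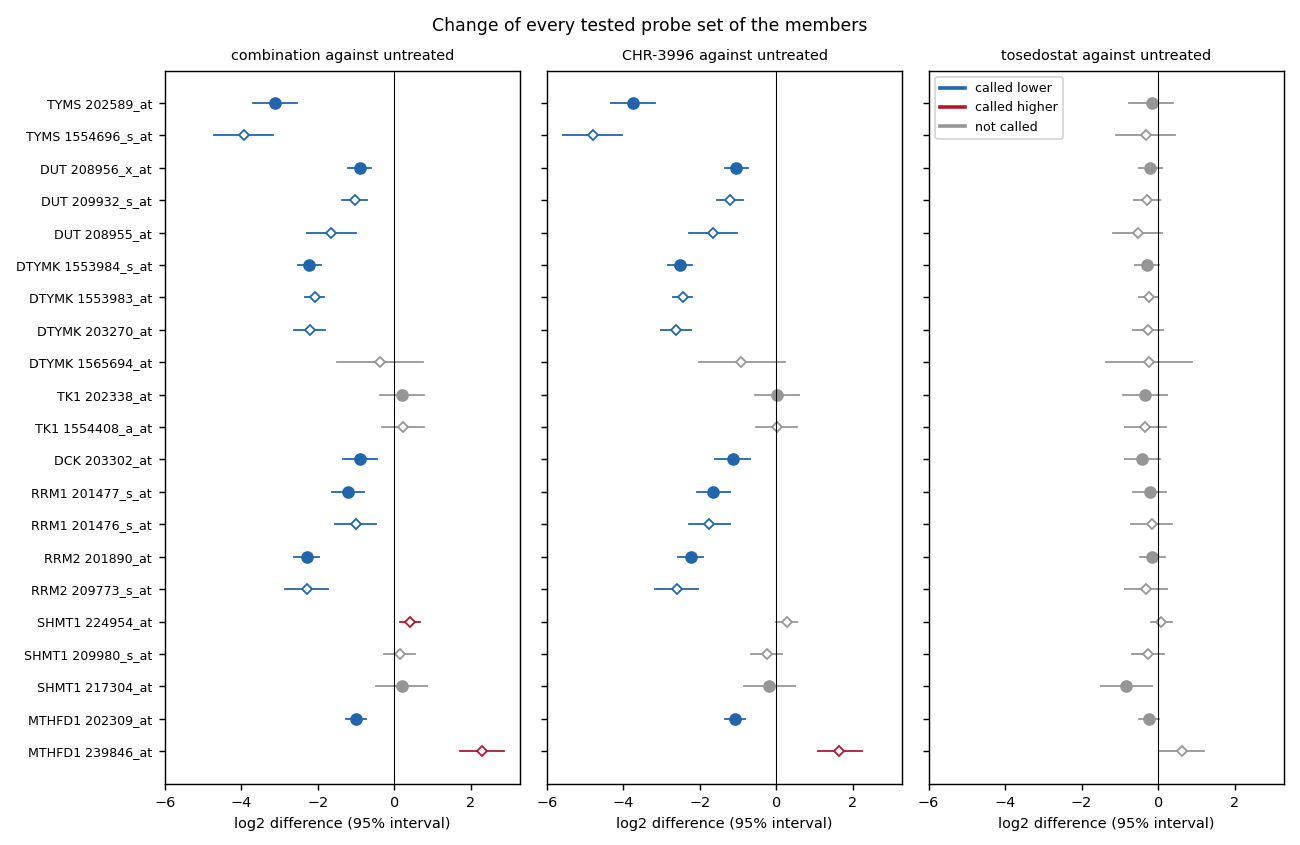
Log2 difference from untreated cells with its 95% interval for the 21 tested probe sets of the 9 members, in panels for the combination, CHR-3996 and tosedostat. Large filled circles are the representative probe sets and open diamonds the others, blue is called lower, red called higher and grey not called. In each of the panels for the combination and CHR-3996, 14 probe sets are called lower, none of TK1 or SHMT1 among them, and 239846_at of MTHFD1 is called higher, as is 224954_at of SHMT1 under the combination, whereas 0 are called under tosedostat.

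Tosedostat alone changed none of the 9 members at the threshold. By their representative probe sets all 9 read lower than in untreated cells. The decreases ran from 0.15 for RRM2 to 0.42 for DCK on the log2 scale, with SHMT1 apart at -0.83 (adjusted p = 0.18). In limma 0 members were called, 1 had an unadjusted p under 0.05 (SHMT1), and adjusted p ranged from 0.18 to 0.82. Over all genes 0.545% were called lower and 4.25% higher in this comparison. All tosedostat arrays lay below all untreated arrays for each of the 9 representative probe sets, as they did for 9.16% of all genes, at a median difference of -0.23 beside 0.04 for all genes. For SHMT1 the nearest arrays were at 4.89 and 4.91. Among the other tested probe sets, arrays overlapped for 209932_s_at of DUT, 201476_s_at of RRM1, 1565694_at of DTYMK and 224954_at and 209980_s_at of SHMT1. They also overlapped for 239846_at of MTHFD1, which read 0.62 higher under tosedostat. The remaining ones did not overlap and read lower. For TYMS the difference was -0.17 (95% interval -0.75 to 0.40) and for RRM2 -0.15 (-0.48 to 0.17). In this fit a decrease to about the size of the lower bounds is not excluded. The width of these intervals comes from a spread shared by all groups. The TYMS SD was 0.04 in tosedostat and 0.07 in untreated cells, beside 0.52 in CHR-3996 and 0.46 in the combination. SHMT1 was called when tosedostat replicate 2 was left out, at -1.19 (adjusted p = 0.048), and read -0.44 without tosedostat replicate 1 (adjusted p = 0.40), while 224954_at gave 0.08.

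Adding tosedostat to CHR-3996 gave no called change in the members. In limma 0 of 9 were called between the combination and CHR-3996, 2 had an unadjusted p under 0.05 (TYMS and RRM1), and 0% of all genes were called lower and 0.0577% higher. The combination read higher for 8 of the 9, RRM2 being the exception at -0.06. TYMS was 0.63 higher (95% interval 0.06 to 1.20, adjusted p = 0.43) and RRM1 0.43 higher (0.01 to 0.86, adjusted p = 0.47). TK1 differed by 0.19 (-0.39 to 0.77) and RRM2 by -0.06 (-0.39 to 0.26). The median of the 9 was 0.25, beside 0.07 for all genes and 0.43 for 38 S phase replication factors, of which 0 were called. Without CHR-3996 replicate 1 the difference was 0.33 for TYMS and 0.23 for RRM1, and with other arrays left out it reached 0.89 and 0.59. Arrays with the same number varied together in these groups, and the differences between them were 0.71, 0.46 and 0.72 for TYMS and 0.52, 0.35 and 0.43 for RRM1 (replicates 1 to 3). They were also positive in all 3 pairs for DTYMK, DCK and SHMT1, as they were for 26.0% of all genes. With the replicate number as a block 0 members were called, at adjusted p from 0.26 for TYMS to 0.88 for RRM2.

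Adding CHR-3996 to tosedostat lowered 6 of the members. TYMS changed by -2.94 (adjusted p = 7.9e-06), to 13.0% of the tosedostat level, RRM2 by -2.14 (adjusted p = 1.6e-06) and DTYMK by -1.93 (adjusted p = 2.4e-06). RRM1 at -0.99, MTHFD1 at -0.76 and DUT at -0.69 were also called lower, against 15.8% of all genes lower and 30.4% higher. DCK fell short of the threshold at -0.48 (adjusted p = 0.087), and at -0.31 without combination replicate 1 (adjusted p = 0.29). TK1 read 0.56 higher (95% interval -0.02 to 1.14, adjusted p = 0.11), and 0.39 without combination replicate 3 (adjusted p = 0.32). With the replicate number as a block, DCK was called lower (adjusted p = 0.033) and TK1 higher (adjusted p = 0.044), which makes 7 lower and 2 higher, beside 17.4% of all genes lower and 32.6% higher in that fit. Leaving out CHR-3996 replicate 1, which changes the shared spread alone, also brought TK1 past the threshold (adjusted p = 0.022). SHMT1 was called higher by its dim probe set, at 1.02 (adjusted p = 0.018), and this call was lost after quantile normalization (adjusted p = 0.055), with equal array medians (0.058), without combination replicate 3 (0.057) and by 224954_at, at 0.33 (adjusted p = 0.052). Without tosedostat replicate 1, the lowest array, the SHMT1 difference was 0.63 (adjusted p = 0.045). The median of the 9 members was -0.76, beside 0.12 for all genes.

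A departure of the combination from the sum of the single effects was tested as an interaction. All 9 values were positive, from 0.09 for RRM2 to 1.21 for SHMT1, and 0 were called in limma, with 4 at an unadjusted p under 0.05 (DTYMK, DCK, RRM1 and SHMT1) and adjusted p from 0.32 to 0.93. Over all genes 0.244% were called lower and 0.0321% higher. The median of the 9 was 0.6, beside 0.01 for all genes and 0.62 for 38 S phase replication factors, of which 0 were called. The 9 values come from the same arrays. For TYMS the combination averaged 9.92 where the sum of the single effects gives 9.11, a difference of 0.80 (95% interval -0.01 to 1.61, adjusted p = 0.50). For RRM2 the corresponding values were 11.13 and 11.04.

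For the 7 members called lower, the group order was thus the same except at its lower end. Untreated cells were highest and tosedostat next, without a called difference between them. The combination and CHR-3996 came last, with RRM2 in reverse order to the other 6, and the difference between these neighbours was called for none of the 7.

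Most of the members also varied together within groups. With each group centred on its mean, SHMT1 correlated with the others at only 0.01 (TYMS) to 0.28 (DCK), and MTHFD1 with DTYMK at 0.39. Replicate 1 was the lowest array for 7 of 9 members in the combination, 8 of 9 in CHR-3996, 6 of 9 in tosedostat and 2 of 9 in untreated cells. The same share over all genes is not given here, and a shift of whole arrays was not tested. The SD of the representative probe sets over 3 arrays had a median of 0.24 in the combination, 0.27 in CHR-3996, 0.05 in tosedostat and 0.07 in untreated cells, whereas the fit assumes a single spread for each probe set. The mean of 38 S phase replication factors followed the same arrays: 9.06, 9.31 and 9.55 in the combination, 8.59, 8.96 and 9.05 in CHR-3996, 10.24, 10.24 and 10.37 in tosedostat and 10.43, 10.43 and 10.44 in untreated cells. MKI67, a marker of cycling cells, averaged 7.51 ± 0.39, 7.38 ± 0.56, 8.50 ± 0.16 and 9.27 ± 0.16 in the same order of groups (SD, n = 3 each). The actin 3′ minus 5′ control value, a measure of RNA integrity and labelling, also moved with the groups, at 1.24 ± 0.15, 1.59 ± 0.17, 2.09 ± 0.11 and 2.14 ± 0.17, while the same value for GAPDH was 0.36 ± 0.09, 0.45 ± 0.06, 0.43 ± 0.08 and 0.44 ± 0.06. The part of cell cycling and of RNA quality in the members' changes was not tested. Leaving out each array in turn kept the count at 7 members lower against untreated cells for CHR-3996 and for the combination.

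**Figure D4:**
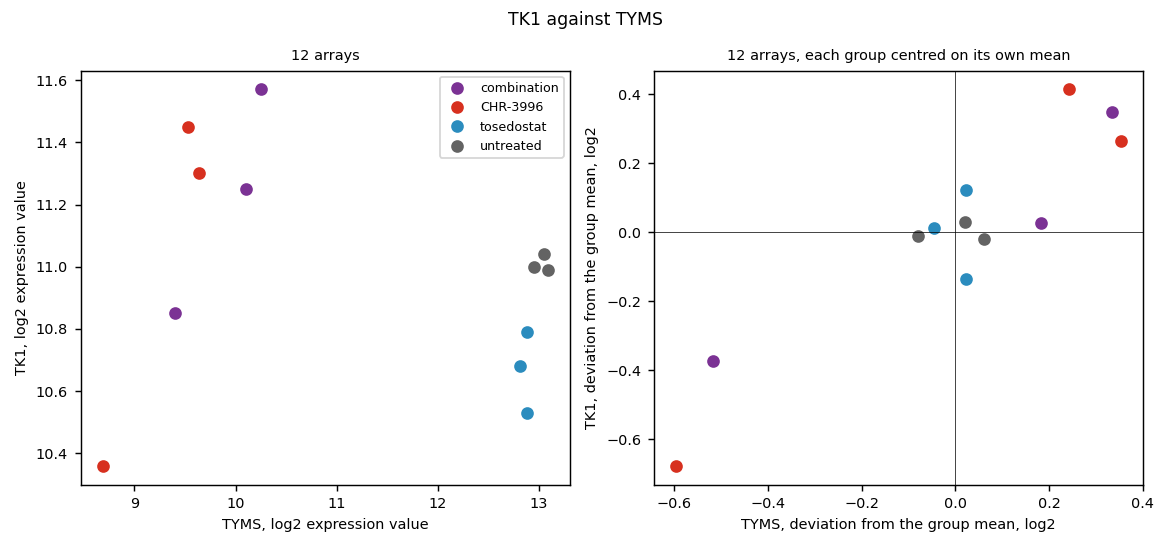
TK1 against TYMS on the 12 arrays, as log2 expression values on the left and as deviations from the group mean on the right, with points coloured by group. In the left panel the arrays with CHR-3996 (8.69 to 10.25) lie apart from those without it (12.81 to 13.09) along TYMS, while along TK1 the combination and CHR-3996 arrays span the untreated ones and the tosedostat arrays lie below the untreated ones (r = -0.24), and the right panel shows replicate 1 of the combination and of CHR-3996 low for both genes (r = 0.93).

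Over the 12 arrays TYMS correlated at 0.97 to 0.99 with DUT, DTYMK, RRM1, RRM2 and MTHFD1 and at 0.89 with DCK. With TK1 it correlated at -0.24, and at 0.93 once each group was centred on its own mean. SHMT1 correlated with TYMS at -0.34, and at 0.01 after centring. These points share arrays and fall into groups, so the values describe the pattern alone. Among 15586 other genes the pattern most like that of TYMS belonged to POLE4, a subunit of DNA polymerase epsilon, CENPM, a centromere protein, and MRPS25, a mitochondrial ribosomal protein, each at r = 0.998 over 12 arrays. For RRM1 it was ZWINT, a kinetochore protein (0.998), for DTYMK MRM2, a mitochondrial RNA methyltransferase (0.997), for RRM2 DAZAP1, an RNA-binding protein (0.996), for DUT CTCF, the insulator protein (0.994), for MTHFD1 RRP15, of ribosome biogenesis (0.993), and for DCK STIL, of centriole duplication (0.982). The closest to TK1 was POLR1F, a subunit of RNA polymerase I (0.966), and the closest to SHMT1 was LINC01362, a non-coding RNA (0.928).

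Other genes of nucleotide supply, together with 38 S phase replication factors, were read from 7 lists holding 113 genes. Their counts stand beside 18.0% of all genes lower and 31.7% higher under CHR-3996 and 15.9% lower and 34.6% higher under the combination. De novo pyrimidine synthesis was lower throughout, with 4 of 4 measured genes called lower and 0 higher under CHR-3996 and under the combination. CTPS1, which makes CTP from UTP, changed by -3.22 and -3.05, CAD, which carries the first steps of the pathway, by -2.08 and -1.97, and DHODH, its mitochondrial dehydrogenase, by -1.32 and -0.99 (CHR-3996 and the combination against untreated cells). The list medians were -1.70 under CHR-3996 and -1.48 under the combination. In de novo purine synthesis 9 of 12 were lower and 1 higher under CHR-3996, and 6 lower and 1 higher under the combination. The lower genes included PFAS at -2.29 and -2.32, ADSL at -1.07 and -0.96 and IMPDH1, the first enzyme of guanine nucleotide synthesis, at -0.99 and -0.97. The higher gene was ADSS1, the muscle form of adenylosuccinate synthase, at 4.68 and 4.98.

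Among nucleotide kinases 5 of 9 were lower and 0 higher in each of these comparisons. NME4, NME6 and NME1, of the nucleoside diphosphate kinase family, changed by -1.28, -1.24 and -1.13 under CHR-3996 and by -1.30, -1.14 and -0.98 under the combination. The folate cycle had 5 of 13 lower and 2 higher under CHR-3996 and 4 lower and 2 higher under the combination. SLC19A1, the reduced folate carrier, changed by -2.29 and -2.49, and FPGS, which retains folates in the cell by adding glutamates, by -1.44 and -0.84. ALDH1L2, a mitochondrial folate dehydrogenase, changed by -1.05 and -1.41, MTHFD2L, another mitochondrial folate enzyme, by 0.85 and 1.07, and MTRR, which reactivates methionine synthase, by 0.33 and 0.40.

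Salvage and pool control genes went both ways, with 5 of 14 lower and 4 higher under CHR-3996 and 5 lower and 6 higher under the combination, and under CHR-3996 the share of higher genes was near that of all genes. ITPA, NUDT1 and DCTPP1, which clear non-canonical or excess nucleotides, changed by -1.74, -1.46 and -1.38 under CHR-3996 and by -1.42, -1.04 and -1.11 under the combination. TYMP, which breaks thymidine down, changed by 1.58 and 1.67, and SAMHD1, which hydrolyses deoxynucleoside triphosphates, by 0.90 and 0.99. RRM2B, the alternative small subunit of the reductase, known in human cells as a p53 target, changed by 1.26 and 1.29 where RRM2 was lower. In nucleoside transport 3 of 9 were lower and 1 higher in both comparisons. SLC29A1, the equilibrative transporter ENT1, changed by -3.09 and -2.62, SLC29A3 by -0.96 and -1.11, and SLC25A36, a mitochondrial pyrimidine nucleotide carrier, by 0.40 and 0.44. Under tosedostat 0 genes of the 7 lists were called. Of the S phase replication factors, 34 of 38 were lower and 2 higher under CHR-3996, with a median of -1.68, and 31 lower and 3 higher under the combination, with a median of -1.16.

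**Figure D5:**
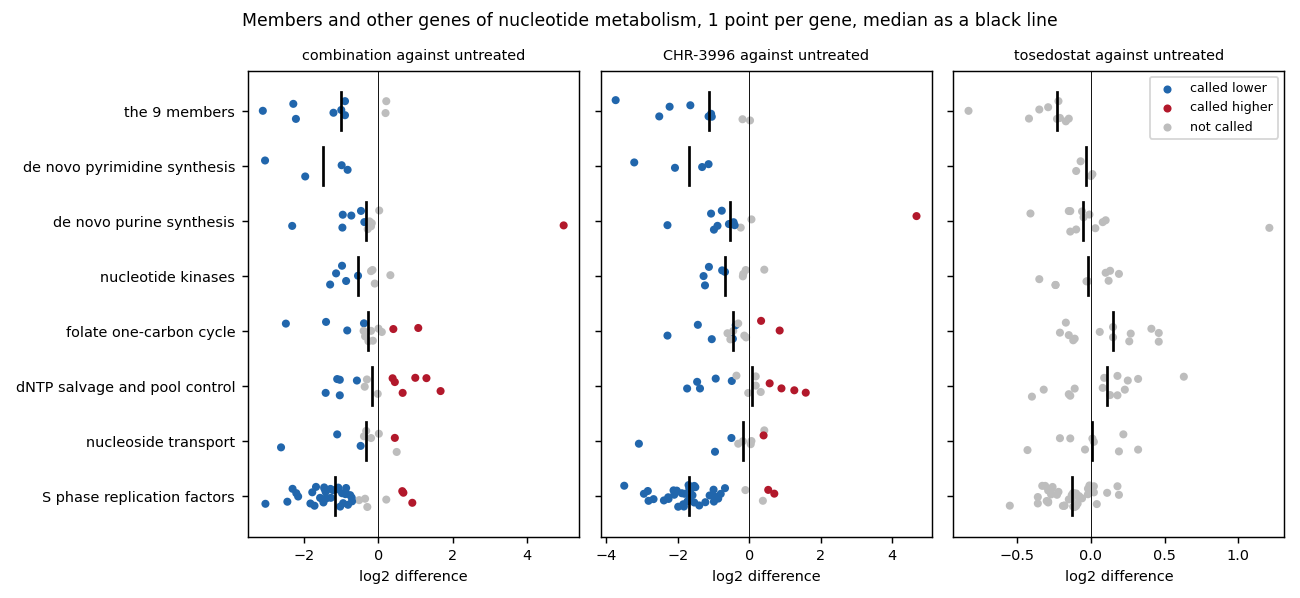
Log2 difference from untreated cells for the 9 members and the measured genes of 7 lists, 1 point per gene, with the list median as a black line, in panels for the combination, CHR-3996 and tosedostat whose horizontal scales differ. The medians of the members are -1.0, -1.14 and -0.23, all 4 pyrimidine synthesis genes are blue (called lower) in the combination and CHR-3996 panels, and no point is called under tosedostat.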

How the data were processed

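Total RNA from 12 samples of H929 cells (100 ng each) was amplified in 2 cycles, labelled and hybridised by the authors to U133 Plus 2.0 arrays, with normalisation in dChip. Values were deposited on the log2 scale, as read from their range, and the version of dChip and its summary method were not stated (not given in the sources used here). Columns of other samples numbered 0. From these, 62 control probe sets were removed, and a probe set was kept where 3 or more of the 12 arrays had it above their own 40th percentile (36395 of 54613), with no further normalisation. limma 3.58.1 (R 4.3.3) was fitted with 1 term for each of 4 groups leaving 8 residual degrees of freedom, for 6 contrasts, with Benjamini-Hochberg adjustment over all kept probe sets in each. Gene names came from the platform annotation, updated to current symbols. A gene is its brightest kept probe set with 1 symbol.

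The members and lists were chosen with earlier results of these data known. The named genes are the members, up to 3 called genes in each direction of each list except S phase, and the genes most like each member, of which some are given. For some pairs of groups, arrays with the same number deviated together from their group means (correlation above 0.1 in all pairs). This held for the combination with each single compound (0.18 to 0.28 with CHR-3996, 0.19 to 0.23 with tosedostat). It also held for CHR-3996 with tosedostat (0.12 to 0.16) and for tosedostat with untreated cells. It did not hold for CHR-3996 or the combination with untreated cells. Nothing states what the numbers mark. Alternatives were quantile normalisation, equal array medians, other filters, the replicate block, robust estimation with a variance trend, a fit to the compared groups alone, other probe sets and each array left out. Figures were drawn with matplotlib 3.10.9 (Python 3.11.15).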

Additional observations from a re-analysis of the deposited data

How the results depend on the processing

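Of 1119 recomputed member differences, 1084 kept their direction and side of the threshold, 20 reversed, 10 gained and 5 lost a call. Many of these differences could not move. Leaving out an array of a group outside a comparison keeps the difference itself, and the other SHMT1 probe set alters SHMT1 alone. The 1084 is therefore not a count of separate checks. The counts of members called kept 7 for CHR-3996 and for the combination against untreated cells whichever array was left out, ran from 7 to 8 for the combination against tosedostat, and from 0 to 1 for tosedostat against untreated cells. Counting every kept single-gene probe set (19) gave 15 calls in each of the first 3 of these comparisons. These were 14 lower and 1 higher against untreated cells and 13 lower and 2 higher against tosedostat. Several of the 19 read the same gene. Over all 36395 probe sets, 5723 were lower and 10697 higher for CHR-3996 and 5149 lower and 11637 higher for the combination, both against untreated cells. Against tosedostat, 4979 were lower and 10340 higher for the combination. The 3 criteria of the study's methods gave 4 members for the combination against untreated cells and 3 for the combination against tosedostat. The share of all genes that meet these criteria is not given here, so these counts cannot be set against a background.

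The reversed values were small, except for MTHFD1. Under the mean of all kept probe sets MTHFD1 read 0.29 for CHR-3996, 0.19 for tosedostat and 0.65 for the combination against untreated cells and 0.46 (adjusted p = 0.018) for the combination against tosedostat, since this mean takes in 239846_at, and RRM2 read 0.12 for the combination against CHR-3996. Quantile normalisation gave SHMT1 -0.05 for the combination against untreated cells and MTHFD1 -0.04 for the combination against CHR-3996. Equal array medians gave TK1 -0.20 for CHR-3996 and -0.04 for the combination, and SHMT1 -0.06 for the combination, all against untreated cells. By 224954_at, an alternative added after seeing the data, SHMT1 read 0.28 for CHR-3996 and 0.08 for tosedostat. With arrays left out, TK1 ranged from -0.19 to 0.36 for CHR-3996 against untreated cells and from -0.15 to 0.40 for the combination against CHR-3996, where RRM2 ranged from -0.21 to 0.03 and MTHFD1 from -0.03 to 0.17, and the interaction of RRM2 ranged from -0.06 to 0.19. The cause was not tested.

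The replicate block changed no member's call except those of TK1 and DCK for the combination against tosedostat, where 9 were called. Over all probe sets it moved the calls for tosedostat against untreated cells to 1936 higher and 373 lower, against 1174 and 164 without it, and for the interaction to 42 higher and 189 lower, against 8 and 67. DCK for the combination against tosedostat was also called after quantile normalisation (adjusted p = 0.029), with equal medians (0.015), with a variance trend (0.045), without combination replicate 3 (0.035) and without CHR-3996 replicate 3 (0.042), and ranged from -0.64 to -0.31 with arrays left out. SHMT1 lost its call there in a fit to the compared groups alone (adjusted p = 0.064). A filter at the 60th percentile removed SHMT1. With 3 arrays a group, a difference smaller than the distance from the estimate to the end of its interval cannot be told from none. The dim probe sets of SHMT1 and MTHFD1 lie near the filter.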
